A study of Mus musculus with 6 samples.

Results

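The 28 genes described here encode proteins of the small (40S) subunit of the cytosolic ribosome, and they were followed in testes of KIFC1 knockout (KO) and wild-type (WT) mice. They were taken by name and matched to Ensembl identifiers through GENCODE M21, and all 28 were found among the 51826 gene identifiers of each library and among the 21518 genes with enough counts to be tested. The list was drawn up after a fall of these mRNAs in the KO samples, largest for Rps29, had been seen in these same 6 libraries. Their KO and WT levels, fold changes and calls are therefore given as a description, with no p-value.

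Bulk RNA sequencing was done on whole testis of 8-week-old C57BL/6J mice in 2 groups, KIFC1 knockout (3 samples, KO1 to KO3) and wild type (3 samples, WT1 to WT3). The series title ties this kinesin to meiotic recombination and to fertility of male mice. The labels say neither how the KO allele was made nor whether the 3 samples of a group were separate animals. Any p-value therefore reflects only sample-to-sample spread, part or all of which may be technical.

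The small subunit binds mRNA, scans it for a start codon and reads each codon against a tRNA, while the large subunit joins the amino acids. Each ribosome carries a single copy of nearly every ribosomal protein, and the mRNAs of these proteins are among the most abundant in dividing cells. Many of them begin with a pyrimidine-rich stretch, the 5′ terminal oligopyrimidine (TOP) motif, through which mTOR signalling controls their translation. In male germ cells the X chromosome is silenced during meiosis, and autosomal copies of several X-linked ribosomal protein genes are expressed there.

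The 6 libraries held 29274603 to 38703606 counts. The limit that a count of 0 allows, 3 counts, came to 0.0775 to 0.102 counts per 1000000 (CPM) and covers counting error only. Kifc1 itself was at 0.448 ± 0.251 CPM in KO testes and 15.5 ± 0.708 CPM in WT testes (SD, n = 3 each), a log2 fold change of -5.09 (SE 0.35, edgeR's quasi-likelihood test, adjusted p = 0.00378). KO2 stood apart from KO1 and KO3. Chi-square per degree of freedom between their counts was 135 and 123, against 31.0 between KO1 and KO3 and 15.4 to 50.3 between WT libraries. Genes of the mitochondrial genome took 5.74%, 1.54% and 4.29% of counts in KO1, KO2 and KO3, and 0.661%, 0.912% and 0.935% in WT1, WT2 and WT3. Values without KO2 are therefore set beside calls and counts that move with it, and values without WT1 are given further below. Epididymal markers were at 0 in all 6 libraries, for all 6 genes of that list.

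Rps29 led the list. It encodes a zinc-binding protein of the head of the subunit, and mutations in the human gene cause Diamond-Blackfan anaemia. It lies on chromosome 12 at 69157722-69159186 on the minus strand (GRCm38), and its coding sequence is the shortest of the 28, at 168 bases. Every 50-base stretch of that sequence also occurs in other annotated genes, so that reads from it need not map to a single place. The 7 genes that hold such copies had few counts in these libraries, together 1.09% of those of Rps29 itself. All 28 genes shared at least 1 coding stretch of 50 bases with another gene, and 9 shared every stretch. Counts of the copies ran from 0 for Rps3 to 43.7% of the parent's counts for Rps2, with a median of 3.46%. No source used here says how reads that map to several places were counted. If they were dropped, they are missing from parent and copy alike. Counts of the copies therefore set no bound on the loss, and all 28 levels are uncertain by an unknown amount.

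The letters around the start sites of these mRNAs, which the choice of genes did not use, were searched for 3 motifs. RefSeq promoters on GRCm38.p6, from 250 bases before to 50 after a start, were on hand for 24 of the 28 genes, with 29 start sites. Rps29, Rps14 and Rps20, which had the lowest fold changes, had no entry, and neither had Rps27a. A pyrimidine tract of at least 6 bases that opens with C within 10 bases of the start was found in 48.3% of these promoters, in 47.5% of those of the large subunit and in 19.2% of all 32851 promoters of the table. The core CCGGAA of the ETS factor motif, searched on both strands, was in 51.7% of them, in 47.5% of large-subunit promoters and in 14.9% of all. The motif AAGATGGC, a core of YY1 sites, was in 6.90% of them, in 12.5% of large-subunit promoters and in 2.75% of all. None of these differences was tested. Overlap of 1 motif with another was not excluded, and a match is a description of the letters. The 30 bases around the start are shown, 15 before and 15 after, with the tract in capitals where 1 was found. The genes shown are from the lower and upper parts of the fold-change order, among those with an entry. The first 4 come from genes called lower in KO testes and the last 5 from genes with a fold change near 0 or above it:
Rps12: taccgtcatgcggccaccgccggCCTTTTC
Rps13: gagagcaaacgtcggtgagtggcgtcactt
Rps16: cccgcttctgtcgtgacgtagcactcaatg
Rps18: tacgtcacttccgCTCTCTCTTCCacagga
Rps6: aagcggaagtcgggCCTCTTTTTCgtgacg
Rps24: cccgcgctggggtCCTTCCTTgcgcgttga
Rps26: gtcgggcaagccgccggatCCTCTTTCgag
Rps3a1: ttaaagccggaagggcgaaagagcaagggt
Rps4x: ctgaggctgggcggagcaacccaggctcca
Tracts stood in both sets, in Rps12 and Rps18 among the lower genes and in Rps6, Rps24 and Rps26 among the others. Rps24 has a second annotated start, which held no tract, and Rps19, also called lower, has 3 starts in the table, of which 1 held a tract.

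The level of Rps29 was 66.9, 91.8 and 80.8 CPM in KO1, KO2 and KO3, against 271, 221 and 268 CPM in WT1, WT2 and WT3. All 3 KO libraries were far below all 3 WT libraries, and WT1 and WT3 were nearly equal. The means were 79.8 ± 12.5 CPM in KO testes and 253 ± 27.99 CPM in WT testes (SD, n = 3 each), so that the KO level was 31.5% of the WT level. The log2 fold change was -1.67 (SE 0.17), and -1.78 without KO2. Base composition and length of the transcripts trended with the counts of each library, and removing those trends (GC and length offsets) gave -1.55. Adding the counts of the copies gave -1.66, which cannot restore reads that were left uncounted. In bulk tissue, fewer cells of a type that holds much of an mRNA and less of it per cell cannot be told apart, and this holds for every value below.

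The 28 genes as a set were lower in KO testes. They took 0.2498%, 0.391% and 0.284% of all counts in KO1, KO2 and KO3, against 0.591%, 0.453% and 0.401% in WT1, WT2 and WT3. The highest KO library, KO2, was just below the lowest WT library, and the mean KO share was 64.0% of the mean WT share. A fold change below 0 was found for 24 of the 28, against 50.7% of all genes tested, with a median log2 fold change of -0.70 against -0.01 over all genes. A total of 7 were called lower by edgeR at an adjusted p under 0.05, where 5.12% of all genes tested were. None of the 28 was called higher, where 3.11% of all genes were, and at an unadjusted p under 0.05 the counts were 19 lower and 0 higher, where 15% and 12.1% of all genes were. The DESeq2 Wald test called 12 lower, where it called 8.19% of all genes tested, and 0 higher. In 12 genes every KO sample was below every WT sample, as in 18.1% of all genes tested, and in 0 genes every KO sample was above, as in 14.6% of all genes tested. Of the 28, 9 were at 50% or less of their WT level, 13 between 50% and 75%, and 6 above 75%.

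**Figure D1:**
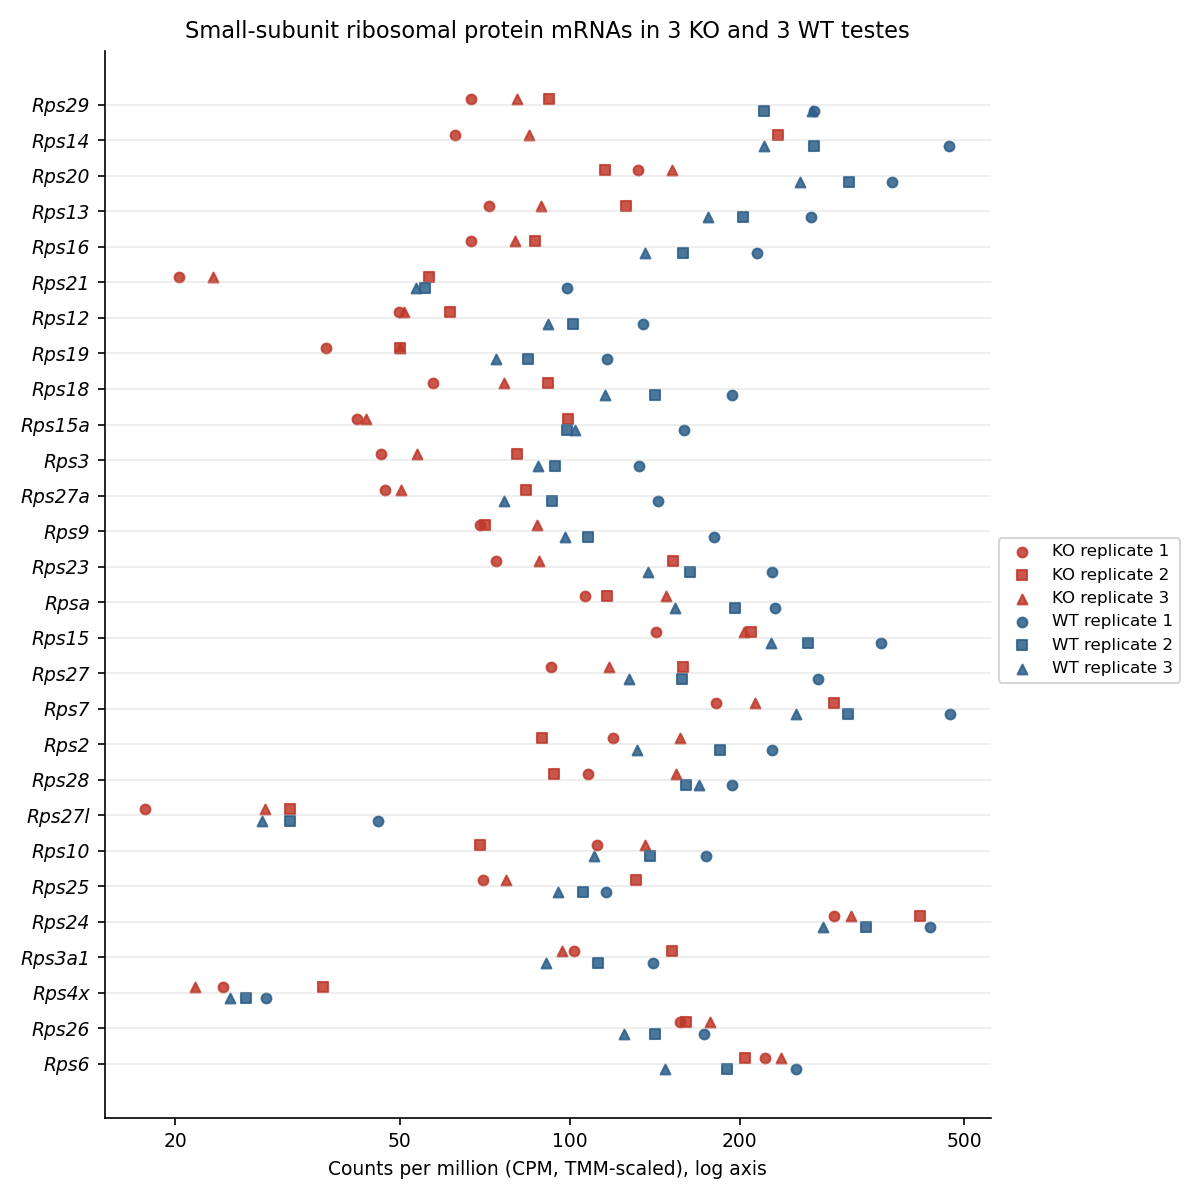
CPM (TMM-scaled, log axis) of each of the 28 genes in the 3 KO samples (red, upper points of a row) and the 3 WT samples (blue, lower points), with genes in order of fold change and 1 symbol per replicate number. The groups are apart for Rps29 (KO 66.9 to 91.8, WT 221 to 271 CPM) and mixed for Rps6, Rps26, Rps4x, Rps3a1 and Rps24 at the foot.

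The count of calls depended on single libraries and on base composition. Without KO2, 14 genes were called lower, where 7.69% of all genes tested were, and the median was -0.82. All 7 genes called with 6 samples were among these 14, and the other 7 were Rps14, Rps21, Rps15a, Rps3, Rps27a, Rps23 and Rps25. Without KO2 and with GC and length offsets together, 13 were called, where 6.27% of all genes tested were. With only KO2 in the KO group 0 were called by edgeR, where 0.00863% of all genes tested were. The median of the 28 was -0.40 in that fit, which rests on a single KO library. With GC and length offsets, 2 genes were called, Rps29 and Rps20, where 0.0651% of all genes tested were called lower, and the median was -0.60. With GC offsets alone only Rps29 was called, where 0.0279% of all genes tested were. Far fewer genes were thus called among all genes with GC and length offsets, while the median of the 28 went from -0.70 to -0.60. Single genes moved more, in either direction. Rps15 went from -0.61 to -0.01, Rps10 from -0.42 to 0.02 and Rps2 from -0.57 to -0.20, while Rps20 went from -1.24 to -1.41. Leaving out WT1, WT2 or KO1 left 0 calls by edgeR, at medians of -0.46, -0.76 and -0.56, and in these fits only 0.0135%, 0.00452% and 0.00454% of all genes tested were called lower. At an unadjusted p under 0.05, 10, 17 and 10 of the 28 were lower there, against 11.5%, 10.8% and 10.7% of all genes tested, and 1, Rps6, was higher without WT1.

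The head of the subunit holds 12 of the 28 proteins, a grouping from textbook structures that was made after the values were seen. All 12 had a fold change below 0, with a median of -0.90, and 6 of the 7 called genes (Rps29, Rps20, Rps16, Rps12, Rps19 and Rps18) were in it. Summed over the 12, the level was 935, 1164 and 1164 CPM in KO1, KO2 and KO3, against 2418, 1876 and 1707 CPM in WT1, WT2 and WT3. All KO sums were below all WT sums, and the KO mean was 54.4% of the WT mean. With GC and length offsets the median was -0.80 and 2 of the 12 were called, and without KO2 it was -1.09 and 9 were called. No difference between the head and the rest of the subunit was tested, since the genes were sorted with their folds known.

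Rps20, whose protein sits in the head and is ubiquitinated on stalled ribosomes, had 132, 115 and 151 CPM in KO1, KO2 and KO3, against 372, 312 and 256 CPM in WT1, WT2 and WT3. The highest KO library was well below the lowest WT library, and KO2 was the lowest of the KO group. The fold change was -1.24 (SE 0.18), and -1.41 with GC and length offsets. A snoRNA gene shares 68 bases of its exons on the same strand.

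Rps16 encodes a protein whose tail reaches the peptidyl tRNA. It had 66.7, 86.7 and 80.0 CPM in KO1, KO2 and KO3, against 215, 159 and 136 CPM in WT1, WT2 and WT3, with no overlap. The fold change was -1.13 (SE 0.20), and -0.88 with the offsets. Rps18, whose protein forms a bridge to the large subunit, had 57.3, 91.5 and 76.4 CPM in the KO libraries in the same order, against 193, 141 and 116 CPM in the WT libraries. Its groups were apart as well, by less, with a fold change of -1.0 (SE 0.23) and -0.75 with the offsets. Of the 2451 exon bases of Rps18, 156 are shared with Vps52 on the other strand, and how reads over them were counted is not known.

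Rps19 is the gene most often mutated in human Diamond-Blackfan anaemia. It had 36.999, 50.01 and 49.996 CPM in KO1, KO2 and KO3, against 116, 84.4 and 74.0 CPM in WT1, WT2 and WT3. The groups were apart, at 49.9% of the WT mean, and the fold change was -1.0 (SE 0.21), or -0.78 with the offsets. Rps12, a head protein found in eukaryotes, had 49.9, 61.4 and 50.8 CPM in the KO libraries, against 135, 101 and 91.6 CPM in the WT libraries. All KO values lay below all WT values, and its fold change was -1.01 (SE 0.18), almost the same with the offsets (-1.06). Exons of Rps12 share bases with 3 snoRNA genes on the same strand.

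The other 6 head genes were not called. Rps3, which lines the channel where mRNA enters, had 46.2, 80.6 and 53.5 CPM in KO1, KO2 and KO3, against 132, 94.3 and 87.7 CPM in WT1, WT2 and WT3. The gap between KO2 and WT3 was small, with a fold change of -0.80 (SE 0.24), and -1.07 without KO2. Rps27a, made as a fusion with ubiquitin that is later cut off, had 47.1, 83.7 and 50.2 CPM in the KO libraries, against 143, 93.0 and 76.5 CPM in the WT libraries. Here KO2 was above WT3, and the fold change was -0.79 (SE 0.29). Rps15 was apart between groups, at 185 ± 37.3 CPM in KO testes and 282 ± 66.5 CPM in WT testes (SD, n = 3 each). Its fold change of -0.61 came to -0.01 with GC and length offsets, and its exons have the highest GC content of the 28, at 61.0%.

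Rps28, at the channel where mRNA leaves, had 108, 93.6 and 154 CPM in KO1, KO2 and KO3, against 194, 161 and 169 CPM in WT1, WT2 and WT3 (-0.56, SE 0.20). Its KO values lay below its WT values, by a small margin at KO3. Rps28 and Rps29 are both short head genes, and their ratio restates the fall for which Rps29 was singled out. Rps29 counts were 62.0%, 98.1% and 52.3% of Rps28 counts in KO1, KO2 and KO3, against 140%, 138% and 158% in WT1, WT2 and WT3. Rps28 had the higher count in all 3 KO libraries, narrowly in KO2, and Rps29 in all 3 WT libraries. Rps10, another target of ubiquitin on stalled ribosomes, overlapped between groups (-0.42, SE 0.26), came to 0.02 with the offsets and -0.19 without KO2, and shares 475 exon bases with a readthrough gene on its own strand. Rps25, which some viral RNAs need to start translation without a cap, was at 70.1, 131 and 77.0 CPM in KO1, KO2 and KO3, against 116, 106 and 95.1 CPM in WT1, WT2 and WT3. KO2 was the highest of the 6 libraries for Rps25, and its fold change was -0.19 (SE 0.24), or -0.52 without KO2.

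The body and platform hold the other 16 proteins, of which 1, Rps13, was called. Their summed level was 1655, 2398 and 1927 CPM in KO1, KO2 and KO3, against 3683, 2586 and 2148 CPM in WT1, WT2 and WT3. KO2 exceeded WT3 in this sum, and the KO mean was 71.1% of the WT mean. Fold changes below 0 were found for 12 of the 16, with a median of -0.60, and without KO2 5 of the 16 were called. Rps13 had 72.0, 126 and 89.0 CPM in KO1, KO2 and KO3, against 267, 203 and 176 CPM in WT1, WT2 and WT3. The groups were apart, with a fold change of -1.17 (SE 0.24), or -1.23 with GC and length offsets.

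The second largest fold change of the 28 belonged to Rps14, a platform protein whose loss of 1 copy underlies the anaemia of the human 5q- syndrome. It had 62.7, 234 and 84.7 CPM in KO1, KO2 and KO3, against 468, 270.5 and 221 CPM in WT1, WT2 and WT3. KO1 and KO3 were low, but KO2 was above WT3 and 3.18 times the mean of KO1 and KO3, the largest such gap of the 28. Its fold change was -1.33 (SE 0.48), and -2.12 without KO2. Rps21 and Rps15a had the same pattern, with KO2 at 2.58 and 2.32 times the mean of KO1 and KO3. Rps21 had 20.3, 56.3 and 23.3 CPM in KO1, KO2 and KO3, against 98.8, 55.3 and 53.5 CPM in WT1, WT2 and WT3 (-1.05, SE 0.40, or -1.67 without KO2). Rps15a had 42.0, 99.3 and 43.5 CPM in the KO libraries, against 159, 99.0 and 102 CPM in the WT libraries (-0.96, SE 0.35, or -1.49 without KO2). For both genes, KO2 lay within the range of the WT libraries, and neither was called with 6 samples.

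Other body proteins were lower by less. Rpsa, also known as a laminin receptor, had 107, 117 and 148 CPM in KO1, KO2 and KO3, against 231, 196 and 153 CPM in WT1, WT2 and WT3 (-0.64, SE 0.19). Rps9, at the mRNA entry channel, had 69.2, 70.8 and 87.4 CPM in the KO libraries, against 180, 108 and 98.2 CPM in the WT libraries (-0.76, SE 0.24). Neither gene overlapped between groups, though KO3 came close to WT3 in both. Rps23, of the decoding centre, reached 152 CPM in KO2, above 137 CPM in WT3 (-0.75, SE 0.29). Rps7 (-0.59), Rps27 (-0.60) and Rps2 (-0.57) overlapped between the groups too, and with GC and length offsets Rps2 came to -0.20. Counts of copies were 43.7% of those of Rps2, the largest share of the 28.

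A handful of body genes sat at or above their WT level. Rps6, whose protein is phosphorylated by S6 kinases below mTOR, had 221, 204 and 237 CPM in KO1, KO2 and KO3, against 252, 190 and 147 CPM in WT1, WT2 and WT3. The KO libraries lay within the WT range, with a fold change of 0.17 (SE 0.20) that was 0.54 with GC and length offsets. Rps26, which contacts the mRNA upstream of the start codon, had 157, 161 and 177 CPM in the KO libraries, against 173, 141 and 125 CPM in the WT libraries (0.17, SE 0.16). Rps24, another gene mutated in human Diamond-Blackfan anaemia, had 293, 417 and 315 CPM in the KO libraries, against 435, 335 and 281 CPM in the WT libraries (-0.04, SE 0.20). Rps3a1 was at 117 ± 30.2 CPM in KO testes and 114 ± 24.8 CPM in WT testes (SD, n = 3 each), and Rps4x at 27.5 ± 7.93 CPM in KO testes and 26.9 ± 1.99 CPM in WT testes. Both had fold changes of 0.03, which were -0.20 for Rps3a1 and -0.22 for Rps4x without KO2. All 5 overlapped between the groups and none was called in any fit shown. Rps29 counts were 30.2%, 44.9% and 34.1% of Rps6 counts in KO1, KO2 and KO3, against 108%, 117% and 182% in WT1, WT2 and WT3. Rps29 has the lowest and Rps6 the highest fold change of the 28, so this gap follows from the choice of the pair.

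**Figure D2:**
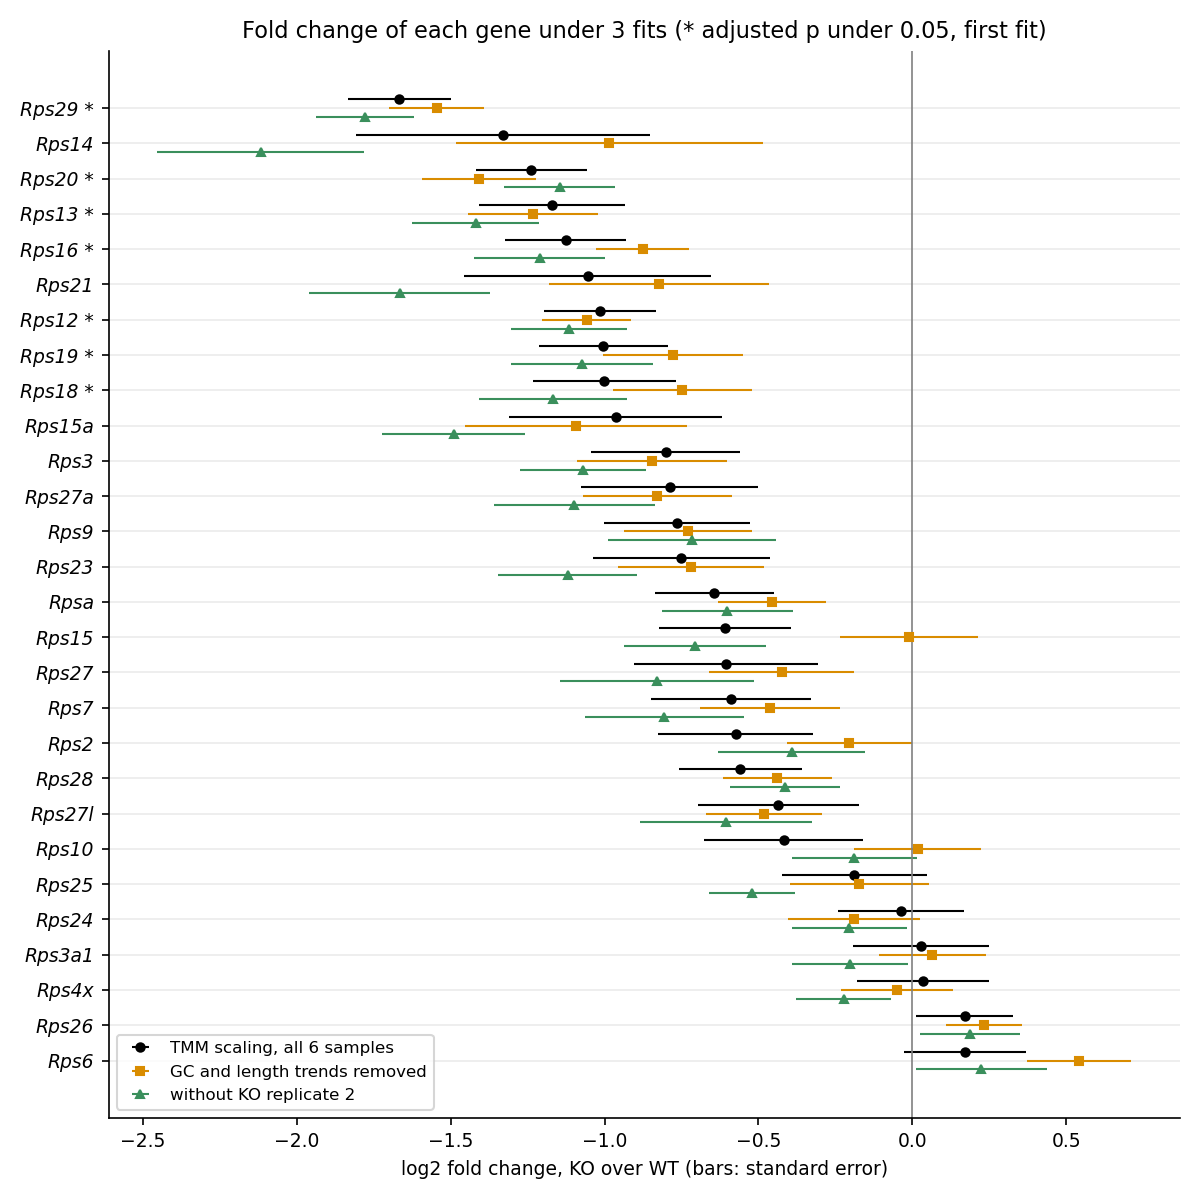
Log2 fold change, KO over WT, of each gene with its standard error, from the fit to all 6 samples (black), with GC and length trends removed (orange) and without KO2 (green), and an asterisk on the 7 genes called in the first fit. Rps29 stays between -1.78 and -1.55 in the 3 fits, while Rps14 moves to -2.12 without KO2 and Rps15 to -0.01 with the trends removed. The fit without WT1, in which Rps14 is at -0.93, is not drawn.

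The genes varied together across libraries of 1 group. WT1 was the highest WT library for all 28 genes and WT3 the lowest for 25. Without WT1 the median of the 28 was -0.46, and 23 had a fold change below 0. Genes called with 6 samples, other than Rps29, then came to -1.07 (Rps20), -0.96 (Rps13), -0.90 (Rps16), -0.81 (Rps12), -0.77 (Rps19) and -0.75 (Rps18). Rps14 was at -0.93, Rps9 at -0.42 and Rps7 at -0.27 in that fit. Among KO libraries, KO2 was the highest for 20 genes and KO1 the lowest for 21. KO2 exceeded 1.5 times the mean of KO1 and KO3 for 11 genes, 8 of them in the body or platform, while Rps10 was lowest on this measure at 0.561. The members are therefore not independent measurements of the genotype, because they share the same 6 libraries. Across the 28 genes, the fold change had a correlation with coding length of r = 0.38 (Spearman's rho = 0.25) and with exon GC content of r = 0.01. These describe genes that share libraries and were chosen by their fold change.

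The genes are spread over 13 chromosomes. Chromosome 7 carries 6 of them, of which Rps13, Rps16 and Rps19 were called, and chromosome 17 carries 4, of which Rps18 was called. A total of 11 share exon bases with another annotated gene. The strand setting of the counting is not known. Of the 2691 exon bases of Rps25, 462 are shared with Trappc4 and 206 with Ccdc84 on the other strand. Reads over the shared bases may have been counted for either gene or left out, and the other exon bases are not affected. The same holds for Rps27a with Clhc1 and for Rps28 with Kank3.

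Levels between genes were compared per kilobase of exon, as CPM per kilobase. Rps15 was highest, at 294 ± 59.2 in KO testes and 448 ± 106 in WT testes (SD, n = 3 each). Rps29 came to 115 ± 18.0 in KO testes and 366 ± 40.4 in WT testes, the second highest in WT, where its libraries overlapped those of Rps15. Rps27, the next in WT, was at 118 ± 32.0 in KO testes and 179 ± 74.97 in WT testes, below Rps29 in all 3 WT libraries. In KO testes Rps29 stood among Rps6, Rps3a1, Rps27 and Rps7, at 139, 119, 118 and 114, within their spread. The lowest in WT were Rps4x, Rps15a and Rps19, at 16.5, 19.2 and 19.5, which do not differ enough to be ranked. Annotated exons include retained introns, so the order changes with the length used. With the same CPM divided by kilobases of coding sequence, Rps29 was at 475 in KO testes and 1508 in WT testes, the highest of the WT values. That CPM includes reads outside the coding sequence, which raises genes with little coding sequence among their exons. Rps29 has 168 coding bases beside 693 exon bases. Reads left uncounted because they map to several places could change either order.

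The family has paralogs outside and inside the list. Rps4x is the X-linked gene of the list, and Rps4l is its autosomal copy on chromosome 6, annotated as a transcribed pseudogene in both GENCODE and RefSeq. Rps4l had far higher counts, with 101, 115 and 142 CPM per kilobase of exon in KO1, KO2 and KO3, against 228, 191 and 164 in WT1, WT2 and WT3. Rps4x stayed between 13.3 and 22.4 in KO and between 15.3 and 17.7 in WT. Rps4l was thus 6.76, 5.14 and 10.6 times Rps4x in KO1, KO2 and KO3, against 12.8, 11.6 and 10.7 times in WT1, WT2 and WT3. KO3 and WT3 nearly met in this ratio. Rps4l fell in KO testes, to 112 ± 19.5 CPM against 183 ± 30.4 CPM in WT testes (log2 fold change -0.70, SE 0.18, adjusted p = 0.0483 in edgeR's quasi-likelihood test, n = 3 each). Its fold change with GC and length offsets was -0.19, with an adjusted p of 0.506 in the same edgeR test. Without KO2 it was -0.68, with an edgeR adjusted p of 0.0620, and no longer called.

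Rps27 and Rps27l encode nearly the same zinc-finger protein, and Rps27l is known in mouse and human as a target of p53. Their coding sequences, of 252 bases each, differ at 60 positions (76.2% identity). They are shown with the differing bases in capitals, because they say how far reads can separate the 2 genes from each other, though not from their copies:
Rps27: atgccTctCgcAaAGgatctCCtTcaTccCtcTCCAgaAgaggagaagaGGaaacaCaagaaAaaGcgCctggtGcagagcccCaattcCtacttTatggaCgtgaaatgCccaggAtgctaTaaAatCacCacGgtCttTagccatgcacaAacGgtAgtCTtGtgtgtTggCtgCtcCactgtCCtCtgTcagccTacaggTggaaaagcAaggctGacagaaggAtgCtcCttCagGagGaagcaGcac
Rps27l: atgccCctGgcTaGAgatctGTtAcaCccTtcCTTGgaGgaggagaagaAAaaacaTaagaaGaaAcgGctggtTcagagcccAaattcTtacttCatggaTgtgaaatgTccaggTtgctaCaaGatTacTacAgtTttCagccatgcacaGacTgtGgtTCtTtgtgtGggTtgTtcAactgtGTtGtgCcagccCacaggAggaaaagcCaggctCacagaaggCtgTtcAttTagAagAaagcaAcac
The capitals are spread along the whole length. Rps27l counts were 19.1%, 20.1% and 24.5% of Rps27 counts in KO1, KO2 and KO3, against 16.6%, 20.2% and 22.4% in WT1, WT2 and WT3. The ratio overlapped between the groups. Rps27rt on chromosome 9 has a coding sequence identical to that of Rps27, and its counts were under 1% of those of Rps27 in all 6 libraries. Of the 50-base coding stretches, 100% of those of Rps27 and 48.3% of those of Rps27l also occur in other genes. Reads left uncounted could therefore change both ratios.

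**Figure D3:**
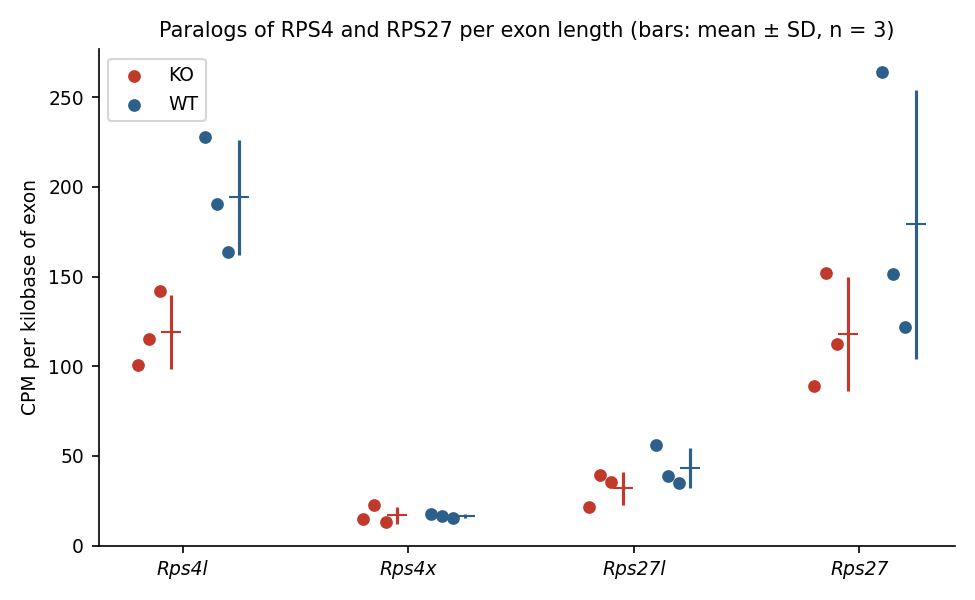
CPM per kilobase of exon of the paralogs Rps4l and Rps4x, and Rps27l and Rps27, in 3 KO samples (red, left) and 3 WT samples (blue, right), with mean ± SD beside the points. Rps4l is at 119 in KO and 194 in WT testes, many times the counted level of Rps4x, while Rps27l is below Rps27 in both groups. Reads left uncounted because they map to several places could change these gaps.

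Rack1 and Fau are small-subunit genes outside the list, given because they had the smallest p-values among such genes, and their direction does not describe the others. Rack1, a scaffold on the head, had 63.2, 70.5 and 84.2 CPM in KO1, KO2 and KO3, against 177, 132 and 153 CPM in WT1, WT2 and WT3. It fell without overlap (log2 fold change -1.08, SE 0.17, adjusted p = 0.0166 in edgeR's quasi-likelihood test, n = 3 each), and with GC and length offsets it was at -1.11 with an adjusted p of 0.0591 in edgeR. Fau, made as a ubiquitin-like fusion, fell to 91.4 ± 16.1 CPM in KO testes, against 196 ± 42.3 CPM in WT testes (-1.10, SE 0.20, edgeR adjusted p = 0.0201, n = 3 each). Its fold change was -0.54 with the offsets (edgeR adjusted p = 0.184).

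Genes of the large subunit were lower as well. Of its 47 genes, 10 fell, with a median of -0.56, and none rose, also at an unadjusted p under 0.05 and by DESeq2. Among all genes tested, edgeR called 5.12% lower and 3.11% higher. With GC and length offsets the median was -0.37 with 1 call, where 0.0651% of all genes tested were called lower. Without KO2, 21 of the 47 fell, where 7.69% of all genes tested did. The smallest p-values were those of Rplp2, part of the stalk that recruits elongation factors, and Rpl13. Rplp2 fell to 65.9 ± 12.4 CPM in KO testes, against 177 ± 29.6 CPM in WT testes (-1.43, SE 0.19, adjusted p = 0.0161 in edgeR, n = 3 each), and it stayed called with the offsets (-1.31). Rpl13 fell to 168 ± 28.6 CPM in KO testes, against 403 ± 72.2 CPM in WT testes (-1.27, SE 0.19, edgeR adjusted p = 0.0161, n = 3 each). As a share of counts, the large subunit took 0.534%, 0.827% and 0.625% in KO1, KO2 and KO3, against 1.18%, 0.973% and 0.851% in WT1, WT2 and WT3. Small-subunit counts were 0.468, 0.473 and 0.455 of large-subunit counts in KO1, KO2 and KO3, against 0.5001, 0.465 and 0.471 in WT1, WT2 and WT3. This ratio overlapped between the groups, and the mean KO share was 66.0% of the WT share for the large subunit, beside 64.0% for the small.

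**Figure D4:**
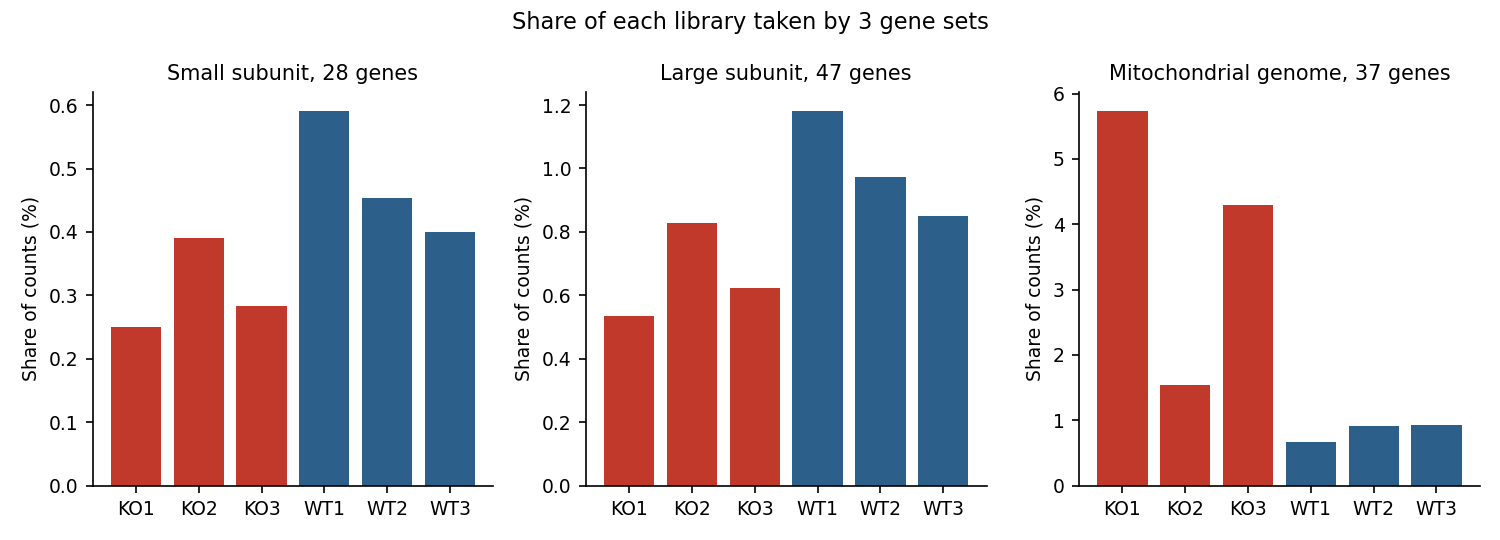
Share of all counts (%) taken by the 28 small-subunit genes, 47 large-subunit genes and 37 genes of the mitochondrial genome in each of the 6 libraries, with KO in red at the left and WT in blue at the right. KO2 has the highest ribosomal shares and the lowest mitochondrial share (1.54%) of the KO libraries, and WT1 the highest ribosomal shares of all.

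Proteins that build the 40S subunit and use it did not follow one direction. Of 30 tested assembly factors, 1 fell and 1 rose, with a median of 0.02, where 5.12% of all genes tested fell and 3.11% rose. Tsr3, which modifies the RNA of the small subunit, fell to 8.63 ± 1.57 CPM in KO testes, against 14.9 ± 1.33 CPM in WT testes (-0.79, edgeR adjusted p = 0.0436, n = 3 each). Mphosph10, of the early processome, rose to 30.2 ± 1.07 CPM in KO testes, against 19.1 ± 2.95 CPM in WT testes (0.66, edgeR adjusted p = 0.0479, n = 3 each). Neither was called with GC and length offsets, where edgeR called only 14 of all genes lower and 4 higher. Without KO2, 0 of the 30 fell by edgeR, with Tsr3 at an adjusted p of 0.0580, and 2 rose. In that fit 1692 of all 22013 genes tested fell and 1457 rose.

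Of 35 initiation factors that bind the 40S subunit, 4 rose and 3 fell, with a median of 0.07. Of all genes tested, 3.11% rose and 5.12% fell. Eif5b, which joins the subunits, had 379, 275 and 353 CPM in KO1, KO2 and KO3, against 107, 144 and 160 CPM in WT1, WT2 and WT3 (1.29, SE 0.20, edgeR adjusted p = 0.0161, n = 3 each). Its groups were far apart in the direction opposite to Rps29. Eif2s2, the beta subunit of eIF2, rose to 136 ± 22.7 CPM in KO testes, against 72.9 ± 5.58 CPM in WT testes (0.90, edgeR adjusted p = 0.0201, n = 3 each). Eif3a and Eif3j1 rose as well, and Eif3g, Eif3i and Eif4h fell, genes named here after their values were seen. With GC and length offsets edgeR called 0 of the 35, and only 14 of all genes lower and 4 higher. At an unadjusted p under 0.05, 5 of the 35 were lower there and 7 higher. Without KO2, 9 rose and 4 fell, where 1457 and 1692 of all 22013 genes tested did.

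Of 19 regulators of TOP mRNAs and mTOR, 1 fell and 0 rose, with a median of -0.12. These are near the shares over all genes tested, 5.12% lower and 3.11% higher. The gene that fell was the mTOR complex subunit Mlst8 (-0.66, SE 0.16, edgeR adjusted p = 0.0412, n = 3 each). At an unadjusted p under 0.05, 3 were lower and 2 higher, where 15% and 12.1% of all genes were. DESeq2 called 1 lower and 1 higher. Mlst8 was at -0.36 with GC and length offsets (edgeR adjusted p = 0.253). Without KO2, 2 fell and 1 rose, where 1692 and 1457 of all 22013 genes tested did. Larp1, which binds TOP mRNAs, was at 668 ± 75.1 CPM in KO testes and 576 ± 76.7 CPM in WT testes, with overlap. Eif4ebp1, an mTOR target, was at 6.48 ± 0.981 CPM in KO testes and 9.93 ± 1.0 CPM in WT testes, and was not called. Among 14 genes of ribosome stress and quality control, 0 were called in edgeR's test, with 3 lower and 2 higher at an unadjusted p under 0.05. DESeq2 called 1 lower and 1 higher, and edgeR without KO2 called 2 lower and 1 higher. Rnf10, which marks small-subunit proteins with ubiquitin, had an adjusted p of 0.0628 in that edgeR test (-0.53, SE 0.15), and 0.0192 without KO2 (-0.64).

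The small subunit of the mitochondrial ribosome, encoded in the nucleus, had 5 of 33 genes fall, with a median of -0.42, and none rise, also at an unadjusted p under 0.05 and by DESeq2. Of all genes tested, edgeR called 5.12% lower and 3.11% higher. Without KO2, 8 of the 33 fell and 1 rose, where 1692 and 1457 of all 22013 genes tested did. Mrps12 fell to 9.33 ± 1.26 CPM in KO testes, against 23.4 ± 2.94 CPM in WT testes (-1.33, SE 0.19, edgeR adjusted p = 0.0161, n = 3 each). Of the 33, edgeR called 0 with GC and length offsets, where it called only 14 of all genes lower and 4 higher. At an unadjusted p under 0.05, 7 of the 33 were lower there and 2 higher. This group took 80.3% of its WT share in KO testes, against 64.0% for the cytosolic small subunit. Its share overlapped between the groups, at 0.0885% in KO2 and 0.0859% in WT3.

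Marker sums of the cells a testis holds were set beside these values. For the counts below, edgeR called 5.12% of all genes tested lower and 3.11% higher. Without KO2 it called 1692 lower and 1457 higher, of 22013 genes. At an unadjusted p under 0.05 with all 6 libraries, 15% of all genes were lower and 12.1% higher. Spermatid markers, 12 genes, summed to 15360 to 19912 CPM in KO testes and 21071 to 22986 CPM in WT testes, without overlap. By edgeR 3 of the 12 fell (5 fell and 3 rose without KO2). The list as a whole did not go 1 way, with a median log2 fold change of -0.07 and 6 of the 12 below 0. At an unadjusted p under 0.05, 4 were lower and 2 higher, and DESeq2 called 4 lower and 2 higher. With GC and length offsets none of the 12 was called by edgeR, with 2 lower and 4 higher at an unadjusted p under 0.05, and Tssk6 was at -0.40 and Prm1 at -0.38, against -1.12 and -0.66 without the offsets. Erythroid markers summed to 41.3 to 78.6 CPM in KO testes and 62.6 to 133 CPM in WT testes, and 1 of 5 tested, Alas2, fell. Leydig markers summed to 1150 to 1750 CPM in KO testes and 640 to 1413 CPM in WT testes, with 0 of 8 called by edgeR, 3 higher at an unadjusted p under 0.05 and 2 higher by DESeq2. Sertoli markers summed to 1136 to 1770 CPM in KO testes and 853 to 1231 CPM in WT testes, and 1 of 12 rose, or 3 without KO2 and 3 by DESeq2. Spermatogonial markers summed to 547 to 674 CPM in KO testes and 542 to 560 CPM in WT testes, with 1 of 14 lower, or 2 without KO2. Pachytene markers summed to 6781 to 8277 CPM in KO testes and 7588 to 9880 CPM in WT testes, with 1 of 11 higher. Sums for myoid cells, macrophages and endothelium overlapped between the groups, with 0 called by edgeR or DESeq2 and, at an unadjusted p under 0.05, 1 macrophage marker higher and 1 endothelial marker lower. Without KO2 edgeR called 1 macrophage marker, Cd68, higher. With GC and length offsets edgeR called no marker of any of these cell types, where it called only 14 of all genes lower and 4 higher. So few calls in all mean that their absence here says little about the markers. The part of these cell types, of the mitochondrial share and of base composition in the levels of the 28 genes was not tested.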

How the data were processed

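RNA of 6 whole-testis samples was isolated with RNAiso Plus, turned into libraries (Hieff NGS MaxUp Dual-mode mRNA kit, YEASEN) and sequenced on a NovaSeq, per the labels' protocols. Trimmomatic, HISAT2, HTSeq and the build mm10 are named, without versions, per the submitters' processing notes. Not given in the sources used here are the annotation release, the strand setting and the treatment of multiply mapped reads. The deposited values are raw, unnormalized counts for each gene, as the authors made them, with 0 rows that name no gene. GENCODE M21 on GRCm38 gave symbols for 51633 of 51826 identifiers.

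Counts of all genes passing filterByExpr were fitted with edgeR 4.0.16 (R 4.3.3, glmQLFit and glmQLFTest, TMM scaling, no covariates, 3 KO and 3 WT samples). Calls are two-sided with Benjamini-Hochberg adjusted p under 0.05 over 21518 genes. Log2 fold changes are KO over WT, and CPM are TMM-scaled. Each SE was derived from the log2 fold change and its F value. GC and length offsets remove each library's trend, estimated with splines (5 degrees of freedom) from the 12751 genes whose mean log2 CPM exceeded 2. The script was tested on simulated data. No replicates agreed within sampling noise. Alternatives included DESeq2 1.42.0, other scalings and filters, and each sample left out.

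The 28 genes, the other lists and the tests were chosen with earlier results of these data known. Named genes are the 28, Kifc1, the paralogs, the 2 smallest p of each list, and others marked or listed as called. Some items are not reported here.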

Additional observations from a re-analysis of the deposited data

How the results depend on the processing

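With 7 of the 28 genes called lower by edgeR, the count was 12 with the DESeq2 Wald test and 1 with GC offsets. It was 2 with GC and length offsets, and 13 with these offsets and without KO replicate 2. It ran from 0 to 14 when each replicate was left out in turn, with 0 without WT1, WT2 or KO1 and 14 without KO2, and 0 genes were called higher in each. The other scalings, filters, thinned libraries and added copies gave 6 or 7. The last 2 settings named here, added copies by sequence and KO2 left out with the offsets, were chosen after seeing the data.

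The log2 fold change of Rps29, -1.67, lay between -1.78 and -1.55 when each replicate was left out, and was past the threshold except without WT1 (-1.59), WT2 (-1.76) or KO1 (-1.55). With KO replicates 1 and 3 left out, the fold change of Rps29 was -1.46. Medians of the 28 ran from -0.86 to -0.46 with each replicate left out. The log2 ratio of the small-subunit share, -0.64, ran from -0.85 to -0.47, and was -0.30 with KO replicates 1 and 3 left out. In 21 of the 28 genes the fold change was below 0 under every setting tried, a tally that was not made for all genes.

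Deviations of same-numbered samples correlated at -0.29, -0.06 and -0.13, against -0.09 to 0.25 for samples with different numbers. The labels give no pairing. With 3 samples a group, these values cannot show whether same-numbered samples shared a batch. A replicate block left 1 of the 28 called, with 13 genes lower and 8 higher among all tested, and the replicate block with GC and length offsets left 0, with Rps29 at -1.54.

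With 3 samples a group, counting error is small beside the spread between libraries. Shared coding sequence with copies, unknown strand and overlapping exons limit single genes, and KO2, WT1 and base composition limit the counts of calls.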
